A study of Mus musculus with 24 samples.

Results

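The laminin chain genes Lama2, Lama4, Lama5, Lamb1, Lamb2, Lamc1 and Lamc3 and the laminin receptor genes Itga7, Itgb1 and Bcam were followed in mouse quadriceps. These 10 genes were looked up by symbol among the 24062 genes of the count tables, and all 10 were present and passed the filter on low counts. A laminin is a cross-shaped trimer of an alpha, a beta and a gamma chain, and laminins form the adhesive sheet of every basement membrane. The basement membrane around a muscle fibre holds mainly the laminin with the Lama2, Lamb1 and Lamc1 chains. Fibres grip it through dystroglycan, which is tied to dystrophin, and through the integrin made of the Itga7 and Itgb1 subunits. Loss of either Lama2 or Itga7 causes muscle disease in mice and people.

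Polyadenylated RNA was sequenced from quadriceps of mice on the C57BL/6 background in 24 libraries. The corrected mice were delEx44 mice, a model of Duchenne muscular dystrophy that lacks an exon of the dystrophin gene Dmd. They had received AAV9 vectors for a guide RNA and for SpCas9 in the abdominal cavity on postnatal day 4. The delEx44 mice had the same deletion without the treatment named for the corrected group, and WT mice had neither. Each genotype had 3 libraries from sedentary mice of 4 weeks, 2 from mice of 8 weeks that had run downhill, and 3 from sedentary mice of 18 months. Running was on a decline of 15 degrees at 12 m/min on alternate days for 1 month. The corrected mice of 4 and 8 weeks received 8e13 vg/kg of each vector, with a self-complementary guide RNA vector. Those of 18 months received 2.5e14 vg/kg of a single-stranded guide RNA vector and 5e13 vg/kg of the Cas9 vector, and in that group the effects of age, of dose and of the vector design cannot be told apart. The run mice were also older than the sedentary mice they are set against, and exercise and growth cannot be told apart. The labels list separate samples but do not say whether each was a different animal, so p-values measure the spread between these samples.

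Libraries held 30.6 to 38.1 M gene counts at 4 and 8 weeks and 23.1 to 31.3 M at 18 months. Dmd stood at 155 to 172 CPM (counts divided by library size after scaling with TMM factors) in corrected muscle at 4 weeks, 36.1 to 41.8 CPM in delEx44 muscle and 204 to 240 CPM in WT muscle. In the run mice it stood at 88.8 to 95.5 CPM in corrected, 40.7 to 41.8 CPM in delEx44 and 148 to 160 CPM in WT muscle, and at 18 months at 195 to 304 CPM in corrected, 84.2 to 86.7 CPM in delEx44 and 337 to 425 CPM in WT muscle. Such gene totals say nothing of the deleted exon itself. Of the 10 marker genes of muscle fibres, such as Ckm and Acta1, 0 were at 0 in any group. The sum over those 10 genes was lower in delEx44 than in WT muscle, at 80392 to 102034 CPM against 174836 to 201906 CPM at 4 weeks, and at 66232 to 79855 CPM against 136759 to 150060 CPM at 18 months. The 9 macrophage markers summed to 1604 to 2279 CPM in delEx44 against 364 to 409 CPM in WT muscle at 4 weeks. The 9 fibroblast markers summed to 9896 to 11009 CPM in delEx44 against 8055 to 9074 CPM in WT muscle at that age, and the 9 endothelial markers to 515 to 639 CPM against 495 to 681 CPM. In every group 0 of these markers were at 0, and their part in the results on laminins was not tested. In whole muscle, fewer cells of a type and less RNA per cell cannot be told apart.

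Promoter sequence was available for 6 of the 10 genes in the RefSeq promoter table (GRCm38.p6). Those of Itgb1 and Lama5 are printed because these genes went opposite ways with running and in aged delEx44 muscle. Each is the 250 bases before the start of transcription, read 5′ to 3′ on the strand of the gene. Capitals mark each match to GGGCGG or its complement CCGCCC, the core of the GC box.
Itgb1, chr8:128685404-128685653, plus strand: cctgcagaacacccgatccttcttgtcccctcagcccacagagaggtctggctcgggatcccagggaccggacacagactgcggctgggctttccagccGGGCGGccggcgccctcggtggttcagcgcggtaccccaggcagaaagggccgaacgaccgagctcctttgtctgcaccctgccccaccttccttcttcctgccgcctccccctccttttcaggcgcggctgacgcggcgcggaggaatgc
Lama5, chr2:180225860-180226109, minus strand: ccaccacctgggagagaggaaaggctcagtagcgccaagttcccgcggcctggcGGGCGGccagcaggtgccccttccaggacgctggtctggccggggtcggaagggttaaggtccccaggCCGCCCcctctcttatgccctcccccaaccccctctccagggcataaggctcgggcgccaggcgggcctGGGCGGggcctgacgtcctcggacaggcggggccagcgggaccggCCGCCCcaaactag
The GC box letters occurred 1 time before Itgb1, 4 times before Lama5 and 2 times before Lamb1, and 0 times before Lama2, Lamb2 and Bcam. Of all 32851 promoter windows of 250 bases, 32.7% held at least 1 match on either strand. The E-box letters CANNTG, which read the same on both strands, occurred 2 times before Lama5 and Lamb1, 1 time before Lama2 and Lamb2 and 0 times before Itgb1 and Bcam, against 66.2% of all windows with at least 1. The TATA box letters TATAAA occurred in 0 of the 6 windows on either strand and in 12.4% of all windows. G and C made up 68% of the Itgb1 window and 72.4% of the Lama5 window, against a median of 52.4% over all windows.

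Levels were compared between genes as TPM, which divides counts by the summed length of the exons of a gene. Itgb1 ranked first in all 9 groups and Lamc3 last. In WT muscle at 4 weeks the order was Itgb1 (328 ± 36.4 TPM, SD, n = 3), Lamc1 (112 ± 5.67), Lamb2 (86.9 ± 4.63), Bcam (40.1 ± 2.89), Itga7 (36.5 ± 3.47), Lamb1 (32.9 ± 0.852), Lama2 (25.5 ± 1.40), Lama4 (18.7 ± 1.80), Lama5 (8.24 ± 0.559) and Lamc3 (2.63 ± 0.350). Bcam and Itga7 were the only neighbours in that order whose libraries overlapped. The longest transcript had 4020 bases against 8092 for all exons in Itga7, 5784 against 9917 in Lamb1 and 2429 against 3199 in Bcam. The order was not redone with the longest transcripts, so the places of these genes rest on the length used. In delEx44 muscle of that age the libraries of Lamb2, Itga7, Bcam and Lamb1 overlapped in chain from one neighbour to the next, as did those of Lama4 and Lama2. After running Lamb2 stood above Lamc1 in all 3 genotypes, with overlap between the libraries in corrected muscle alone.

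The makeup of the laminin pool was described as the share of each chain among all chains of its type, which does not depend on how libraries are scaled. Lama4 and Lamb1 took larger shares, and Lama5 and Lamc3 smaller shares, in delEx44 than in WT muscle at every stage. A share can fall while the chain itself does not, because it also falls when other chains of its type rise. Lama4 made up 42.5 ± 1.66% of alpha chain TPM in delEx44 against 34.7 ± 1.59% in WT muscle at 4 weeks (SD, n = 3 each), and 42.8 ± 1.56% against 34.9 ± 1.62% at 18 months. The Lama4 shares of the 2 groups did not overlap at any stage. Lama5 made up 13.8 ± 0.681% in delEx44 against 15.3 ± 0.128% in WT muscle at 4 weeks. Its share was 25.6 ± 0.124% against 33.7 ± 1.78% after running (n = 2 each) and 12.5 ± 0.942% against 19.3 ± 2.17% at 18 months, again without overlap. The mean TPM of Lama5 itself was higher in delEx44 than in WT muscle at 4 weeks and after running, and lower at 18 months. The libraries overlapped in Lama5 TPM at each stage. Lama2, the alpha chain of the fibre surface, made up 41.7 ± 1.39% in delEx44 against 47.4 ± 1.36% in WT muscle at 4 weeks. After running its share was 38.3 ± 1.60% in delEx44 and 34.7 ± 5.58% in WT muscle (n = 2 each). At 18 months its share was 43.2 ± 1.28% in delEx44 and 42.6 ± 1.55% in WT muscle. The libraries overlapped at both of these stages. With the longest transcript in place of all exons, the 18-month shares were 42.5% in delEx44 and 43.9% in WT muscle. 

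Among beta chains, Lamb1 made up 35.8 ± 1.41% of TPM in delEx44 against 27.3 ± 1.48% in WT muscle at 4 weeks, and 24.1 ± 1.54% against 20.1 ± 2.29% at 18 months (n = 3 each). Lamb2 made up nearly all of the rest. Among gamma chains, Lamc1 made up 94.2% to 97.7% of TPM in the group means. Lamc3 made up 0.374 ± 0.125% in delEx44 against 2.25 ± 0.193% in WT muscle at 4 weeks. With the longest transcript in place of all exons, 45 of the 63 shares moved by more than the SD between libraries, by up to 12.1 percentage points. No test was made on shares, and with 3 libraries against 3 an exact permutation test could not have gone below 0.10.

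**Figure D1:**
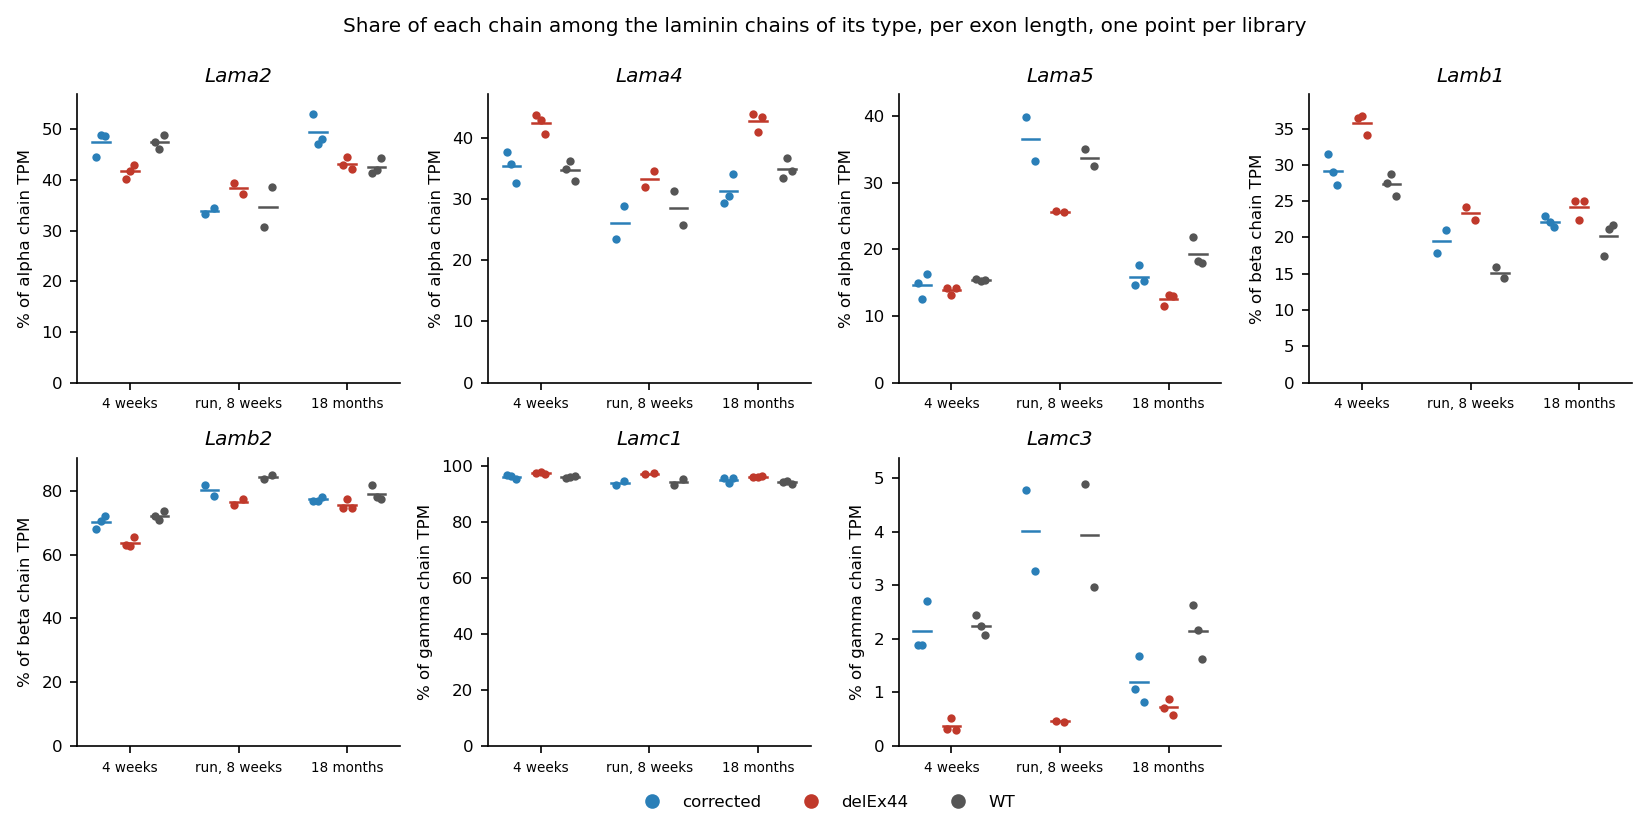
Share of each laminin chain (percent of the TPM of all alpha, beta or gamma chains, vertical axis from 0) in the corrected, delEx44 and WT libraries at each stage; points are libraries and bars are group means. Lama4 and Lamb1 took larger shares, and Lama5 and Lamc3 smaller shares, in delEx44 than in WT libraries at every stage. Lamc3 averaged 0.374% in delEx44 against 2.25% in WT libraries at 4 weeks, 0.457% against 3.94% after running and 0.721% against 2.14% at 18 months.

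Between delEx44 and WT muscle, 5 of the 10 genes passed at 4 weeks (4 higher, 1 lower), against 50.2% of all genes tested. After running 7 passed (6 higher, 1 lower), against 29.1% of all genes, and at 18 months 7 passed (5 higher, 2 lower), against 52.7%. Passing means an adjusted p under 0.05 in edgeR's quasi-likelihood test, with Benjamini-Hochberg adjustment over all genes of a fit. The median log2 fold change of the 10 genes was 0.06 at 4 weeks, 0.40 after running and 0.24 at 18 months, beside medians over all genes of 0.00, -0.01 and 0.05. The share of members that passed lay near the share of all genes at 4 weeks.

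All fold changes are relative to TMM scaling, which puts the typical gene near 0. With libraries scaled to total gene counts instead, a setting added after the data were seen, the median over all genes moved to 0.39 at 4 weeks, 0.12 after running and 0.35 at 18 months. Of the genes that passed between delEx44 and WT muscle at 4 weeks, 50.2% were higher with TMM and 91.2% with total counts. The same shares were 51.2% and 73.4% after running, and 54.7% and 85.2% at 18 months. A direction given here is therefore a direction against the typical gene.

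**Figure D2:**
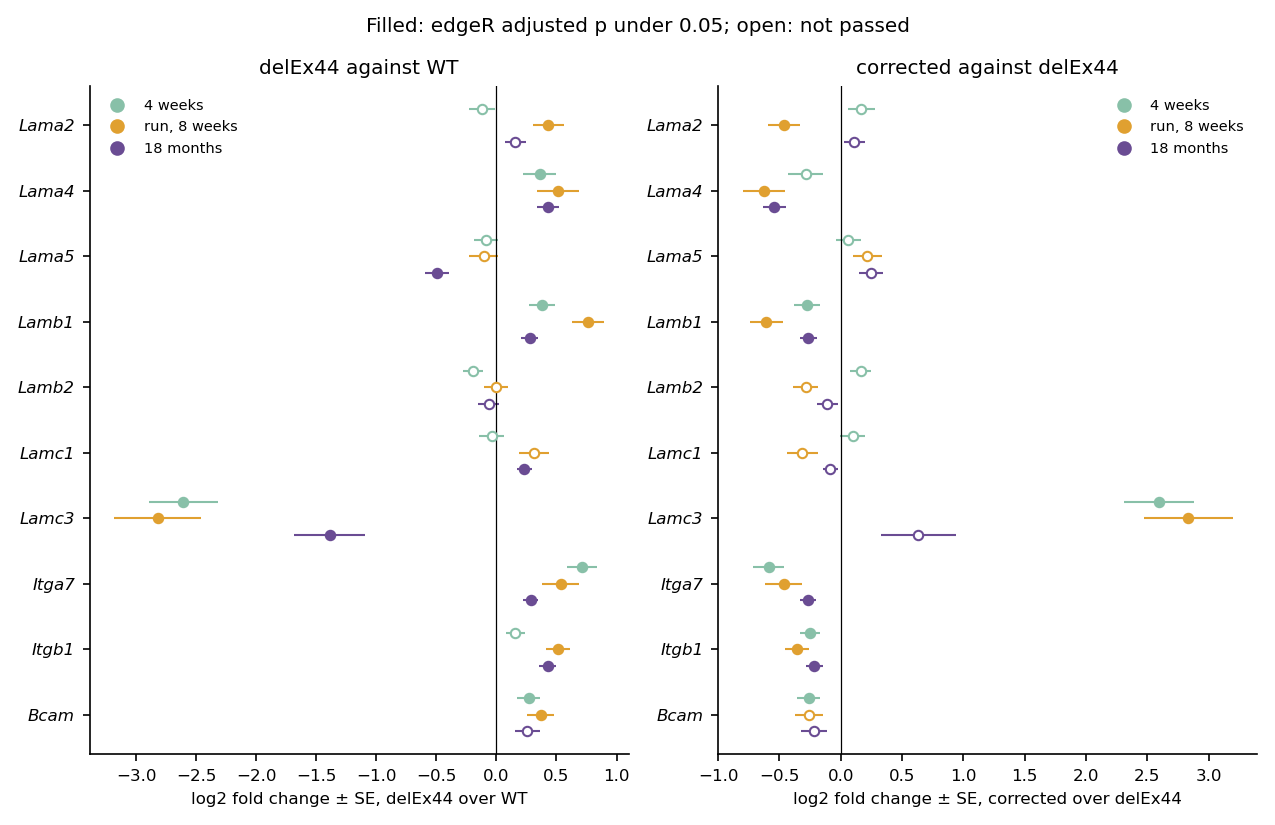
Log2 fold change with its SE (horizontal axis) of each gene (vertical axis) for delEx44 over WT (left) and corrected over delEx44 (right), coloured by stage; filled points passed adjusted p 0.05. Lamc3 stood apart, at -2.61, -2.82 and -1.39 for delEx44 over WT at 4 weeks, after running and at 18 months, while the other genes lay between -0.50 and 0.76.

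Lamc3, a gamma chain of restricted distribution (chr2:31887291-31946539, plus strand of GRCm38 in GENCODE vM21), showed the largest difference of the 10 genes. At 4 weeks it stood at 0.723, 1.5 and 0.683 CPM in delEx44 libraries (34, 66 and 28 counts), against 6.77, 6.03 and 5.00 CPM in WT libraries (215, 167 and 168 counts). After running it stood at 0.843 and 0.831 CPM in delEx44 and at 7.24 and 4.66 CPM in WT libraries. At 18 months the values were 1.26, 1.53 and 1.03 CPM in delEx44 and 4.31, 3.32 and 2.37 CPM in WT libraries. Every delEx44 library lay below every WT library of its stage. Lamc3 fell in delEx44 against WT by 2.61 ± 0.29 (SE) on the log2 scale at 4 weeks (adjusted p = 1.38e-05). The fall was 2.82 ± 0.36 in the run mice (adjusted p = 0.000187) and 1.39 ± 0.30 at 18 months (adjusted p = 0.00306). Lamc3 passed in every alternative fit of these 3 comparisons.

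Corrected muscle held Lamc3 at 4.81, 5.48 and 7.36 CPM at 4 weeks and at 6.51 and 5.47 CPM after running. These values lay above every delEx44 library and overlapped with the WT libraries, although at 4 weeks replicate 1 lay below and replicate 3 above all 3 WT values. Lamc3 rose in corrected over delEx44 muscle by 2.59 ± 0.29 at 4 weeks (adjusted p = 2.31e-05) and by 2.83 ± 0.36 after running (adjusted p = 0.000405), both on the log2 scale and in every alternative fit. At 18 months corrected libraries held 1.78, 2.76 and 1.43 CPM, and corrected replicate 3 lay within the delEx44 values. Relative to delEx44 the log2 value was 0.63 ± 0.30 (adjusted p = 0.122), and without corrected replicate 3 it was 0.86 (adjusted p = 0.0428). Relative to WT it was -0.76 ± 0.29 (adjusted p = 0.143), and without corrected replicate 2 it was -1.07 (adjusted p = 0.0190).

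Although age cannot be told apart from the count table, the difference of the 2 ages was itself tested for the corrected minus delEx44 contrast. For Lamc3 it was -1.93 ± 0.45 on the log2 scale at 18 months relative to 4 weeks (adjusted p = 0.00972), and it passed in every alternative fit. For delEx44 minus WT it was 1.2 ± 0.44 (adjusted p = 0.0967), and without delEx44 replicate 2 at 4 weeks it was 1.66 (adjusted p = 0.0191). Schwann cell markers summed to 208 to 238 CPM in delEx44 against 280 to 390 CPM in WT libraries at 4 weeks. At 18 months the same 11 markers summed to 223 to 289 CPM in delEx44 against 193 to 214 CPM in WT libraries, with none at 0. Their part in the Lamc3 result was not tested.

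Lamc1, the gamma chain of most laminins (chr1:153218922-153332786, minus strand), passed in 1 of the 9 genotype comparisons. It rose in delEx44 over WT muscle at 18 months by 0.23 ± 0.06 on the log2 scale (adjusted p = 0.0111), with 231, 229 and 235 CPM in delEx44 and 209, 197 and 185 CPM in WT libraries. The libraries did not overlap, and the call held in every alternative fit. At 4 weeks the log2 fold change was -0.04 ± 0.10 (adjusted p = 0.763) and after running 0.31 ± 0.13 (adjusted p = 0.0800), where 239 and 246 CPM in delEx44 lay above 188 and 203 CPM in WT libraries. The run value passed with DESeq2 (adjusted p = 0.0464) and with total counts (0.45, adjusted p = 0.0247). With total counts the 4-week value was 0.36 (adjusted p = 0.0108), so its sign depends on the scaling. Corrected over delEx44 muscle gave 0.10, -0.32 and -0.09 at 4 weeks, after running and at 18 months, none of which passed. The run value was -0.49 (adjusted p = 0.0317) without corrected replicate 3 and -0.42 (adjusted p = 0.0380) with total counts. With total counts the values at 4 weeks and 18 months were -0.23 (adjusted p = 0.0886) and -0.36 (adjusted p = 0.00221). The Lamc1 interaction of delEx44 minus WT with age was 0.25 ± 0.12 (adjusted p = 0.191), and 0.37 (adjusted p = 0.0265) without delEx44 replicate 2 at 4 weeks.

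Among the alpha chains, Lama4 (chr10:38965515-39110188, plus strand), a chain known from the basement membranes of vessels and nerves, was higher in delEx44 than in WT muscle at all 3 stages. At 4 weeks it stood at 109, 124 and 88.6 CPM in delEx44 and at 90.9, 86.6 and 73.1 CPM in WT libraries, and delEx44 replicate 3 lay within the WT values. At 18 months it stood at 106, 86.4 and 99 CPM in delEx44 and at 72.1, 76.2 and 67.5 CPM in WT libraries, with no overlap. Lama4 rose by 0.36 ± 0.14 on the log2 scale at 4 weeks (adjusted p = 0.0495), by 0.43 ± 0.09 at 18 months (adjusted p = 0.00319) and by 0.51 ± 0.17 in the run mice (adjusted p = 0.0431). In the run mice it stood at 69.3 and 74.8 CPM in delEx44 and at 55.5 and 45.5 CPM in WT libraries. The 18-month call held in every alternative fit. The 4-week call was lost without any 1 of the 3 WT libraries or without delEx44 replicate 1 or 2 (adjusted p = 0.0518 to 0.173), and with no filter on low counts. The call after running was lost without WT replicate 2 or either delEx44 library (adjusted p = 0.0897 to 0.262), and with no filter.

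In corrected muscle Lama4 stood at 66.2, 60.6 and 73.0 CPM at 18 months, below every delEx44 library. It fell against delEx44 muscle by 0.54 ± 0.09 on the log2 scale at 18 months (adjusted p = 0.00126), in every alternative fit. After running it stood at 39.2 and 54.1 CPM in corrected against 69.3 and 74.8 CPM in delEx44 libraries, a log2 fold change of -0.63 ± 0.17 (adjusted p = 0.0219). That call was lost without either delEx44 library or without corrected replicate 1 (adjusted p = 0.0523 to 0.200), and when only the groups compared were fitted. At 4 weeks the log2 fold change was -0.29 ± 0.14 (adjusted p = 0.114), and it passed without delEx44 replicate 3 (-0.42, adjusted p = 0.0273) and with total counts (-0.61, adjusted p = 0.00690). Of the 9 fibroblast markers all 9 rose in delEx44 over WT muscle at 18 months, and they summed to 5379 to 6205 CPM in delEx44 against 3229 to 3500 CPM in WT libraries. The 9 macrophage markers summed to 969 to 1042 CPM against 266 to 366 CPM, the 9 endothelial markers to 618 to 634 CPM against 676 to 749 CPM and the 8 mural cell markers to 879 to 939 CPM against 1170 to 1239 CPM. Of these lists 0 genes were at 0, and their part in the Lama4 result was not tested.

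Lama2 (chr10:26980036-27619758, minus strand), the alpha chain whose loss causes congenital muscular dystrophy, passed between delEx44 and WT muscle after running but not at 4 weeks or 18 months. There it stood at 116 and 109 CPM in delEx44 and at 73.7 and 92.6 CPM in WT libraries, with a log2 fold change of 0.43 ± 0.13 (adjusted p = 0.0255). It fell in corrected against delEx44 muscle after running, with 75.4 and 87.2 CPM in corrected libraries and a log2 fold change of -0.46 ± 0.13 (adjusted p = 0.0220). The first call was lost without WT replicate 1 or either delEx44 library (adjusted p = 0.0585 to 0.202), the second without either delEx44 library or corrected replicate 1 (adjusted p = 0.0595 to 0.188), and both when only the groups compared were fitted. At 4 weeks the log2 fold change of delEx44 over WT was -0.12 ± 0.11 (adjusted p = 0.365), and with total counts it was 0.28 (adjusted p = 0.0346). At 18 months it was 0.16 ± 0.09 (adjusted p = 0.146), with 140, 127 and 130 CPM in delEx44 above 121, 118 and 117 CPM in WT libraries, and with total counts it was 0.47 (adjusted p = 0.00188). For corrected over delEx44 it was 0.17 ± 0.11 at 4 weeks (adjusted p = 0.212), which became 0.27 (adjusted p = 0.0466) without delEx44 replicate 2, and 0.11 ± 0.09 at 18 months (adjusted p = 0.335). With total counts these 2 values were below 0 (-0.16 and -0.17).

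Lama5 (chr2:180176373-180225859, minus strand), an alpha chain of vessel and synaptic basement membranes and the ligand of the Bcam protein, went the other way. At 18 months it stood at 26.0, 26.2 and 28 CPM in delEx44 and at 44.4, 35.8 and 33.0 CPM in WT libraries, with no overlap. It fell in delEx44 by 0.50 ± 0.10 on the log2 scale (adjusted p = 0.00217). With total counts the log2 fold change was -0.19 (adjusted p = 0.104). Corrected libraries held 31.3, 33.1 and 30.7 CPM, above every delEx44 library, with a log2 fold change over delEx44 of 0.25 ± 0.10 that did not pass (adjusted p = 0.0727). That value passed in 4 alternative fits, among them the one without corrected replicate 3 (adjusted p = 0.0490). At 4 weeks the log2 fold change of delEx44 over WT was -0.09 ± 0.10 and after running -0.11 ± 0.12, and with total counts both lay above 0 (0.31 and 0.03). Total counts also put corrected over delEx44 at -0.27 at 4 weeks and -0.03 at 18 months, so the direction of Lama5 in these 4 comparisons depends on the scaling. Its share among alpha chains was lower in delEx44 than in WT muscle at every stage. That share does not depend on scaling, but it also falls when other alpha chains rise, so it does not settle the direction of Lama5.

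Lamb1 (chr12:31265234-31329644, plus strand), the beta chain of the fibre laminin, was higher in delEx44 than in WT muscle at all 3 stages. It stood at 152, 183 and 136 CPM in delEx44 and at 125, 122 and 115 CPM in WT libraries at 4 weeks. After running it stood at 105 and 105 CPM in delEx44 and at 60.3 and 63.6 CPM in WT libraries, and at 18 months at 70.7, 64.1 and 71.1 CPM in delEx44 and 54.9, 59.1 and 55.9 CPM in WT libraries. The libraries did not overlap at any stage. Lamb1 rose by 0.38 ± 0.11 on the log2 scale at 4 weeks (adjusted p = 0.00979), by 0.76 ± 0.13 in the run mice (adjusted p = 0.00112) and by 0.28 ± 0.07 at 18 months (adjusted p = 0.00810). Each call held in every alternative fit. 

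Lamb1 fell in corrected against delEx44 muscle at all 3 stages, by 0.28 ± 0.11, 0.61 ± 0.13 and 0.27 ± 0.07 on the log2 scale (adjusted p = 0.0486, 0.00630 and 0.0131). Corrected libraries held 141, 128 and 119 CPM at 4 weeks, where replicate 1 lay within the delEx44 values, 61.0 and 77.2 CPM after running, and 58.2, 60.3 and 52.8 CPM at 18 months. The 4-week call was lost without delEx44 replicate 1 or 2 or corrected replicate 2 or 3 (adjusted p = 0.0679 to 0.210), with no filter and in the fit of the 2 groups alone. The call after running was lost without corrected replicate 1 (adjusted p = 0.0872). The 18-month call was lost without delEx44 replicate 1 or 3 or corrected replicate 3 (adjusted p = 0.0527 to 0.0751).

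Lamb2 (chr9:108479736-108490530, plus strand), the beta chain known for its place at the neuromuscular junction, passed in none of the 9 genotype comparisons. At 4 weeks it stood at 161, 191 and 160 CPM in delEx44 and at 201, 184 and 202 CPM in WT libraries, and delEx44 replicate 2 lay within the WT values. Its log2 fold change was -0.20 ± 0.08 (adjusted p = 0.0645), which became -0.28 (adjusted p = 0.0135) without delEx44 replicate 2 and 0.20 (adjusted p = 0.0457) with total counts. In the 6 comparisons of delEx44 with WT and of corrected with delEx44 muscle its log2 fold changes ran from -0.28 to 0.16. For corrected over delEx44 at 4 weeks the value without delEx44 replicate 2 was 0.25 (adjusted p = 0.0261), against 0.16 (adjusted p = 0.127) with it and -0.16 (adjusted p = 0.108) with total counts. After running the value of -0.28 (adjusted p = 0.0598) passed with DESeq2 (adjusted p = 0.0377) and with total counts (-0.40, adjusted p = 0.0152). At 18 months total counts gave 0.24 for delEx44 over WT (adjusted p = 0.0240) and -0.39 for corrected over delEx44 (adjusted p = 0.00302), against -0.07 and -0.11 with TMM.

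**Figure D3:**
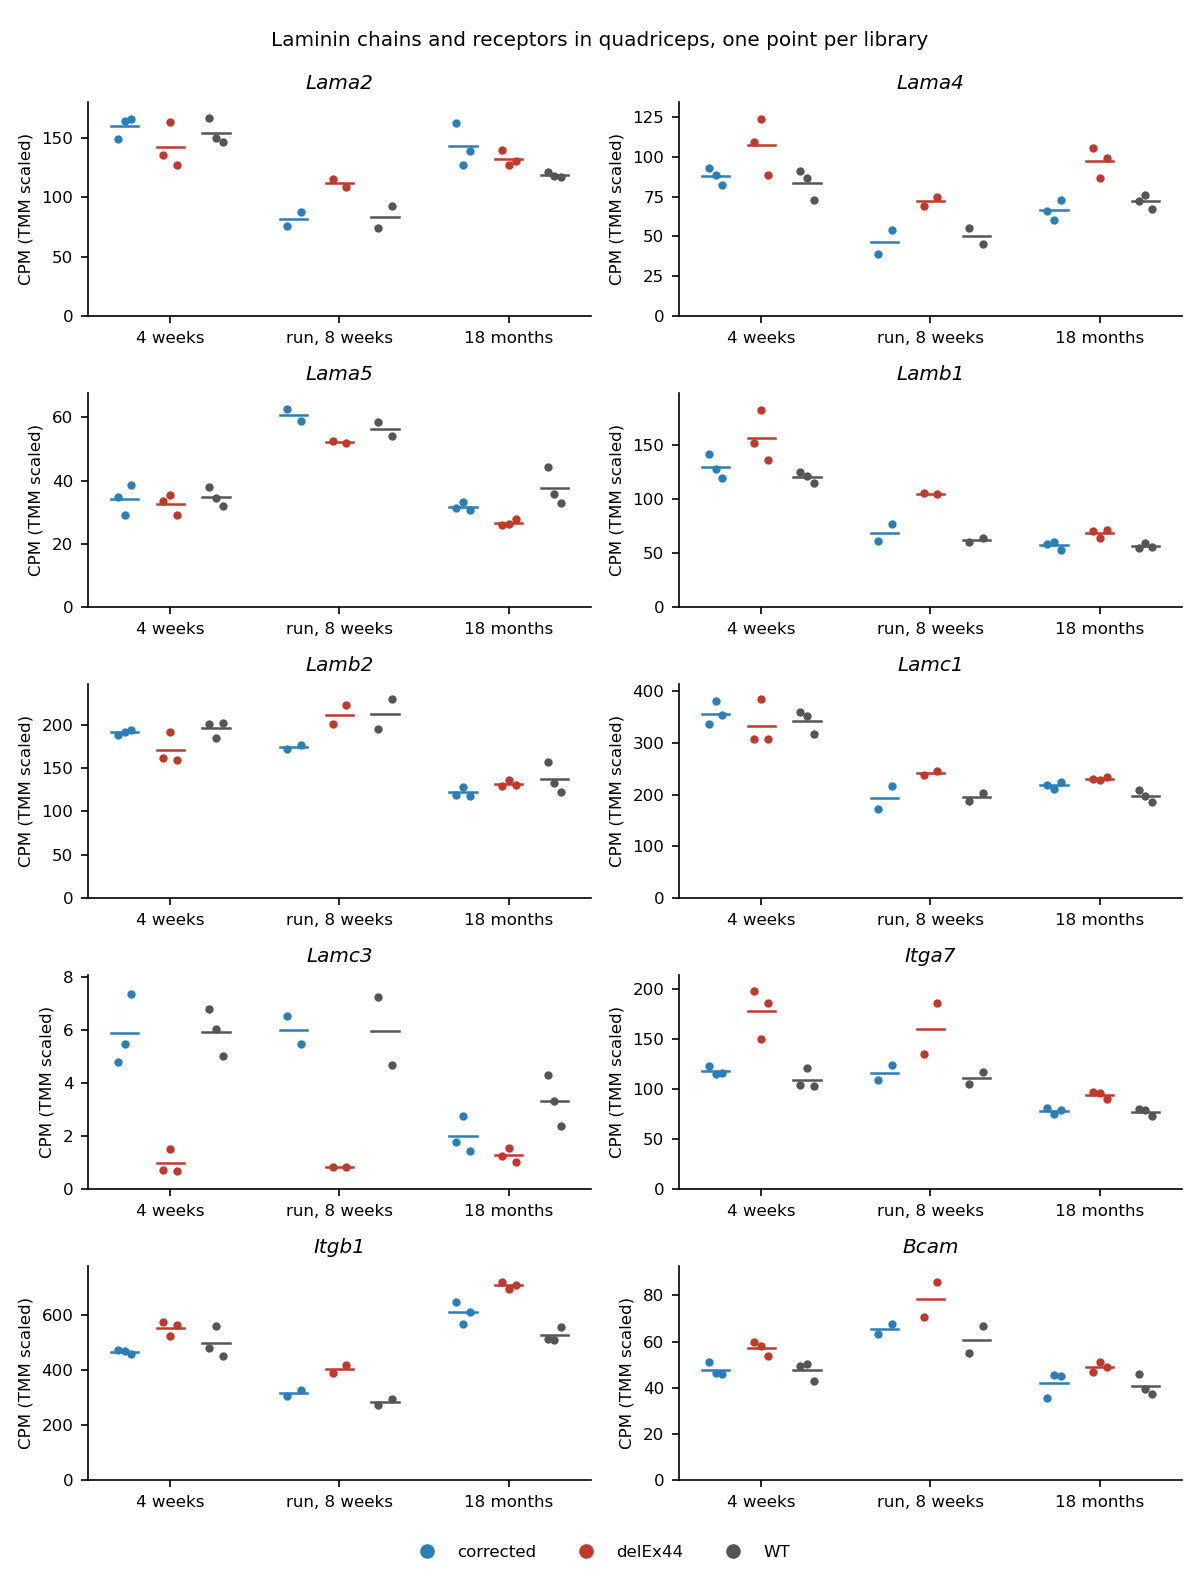
CPM scaled with TMM factors (vertical axis from 0) of the 10 genes in every library, by stage, with corrected, delEx44 and WT side by side; bars are group means. All delEx44 points lie below the WT points for Lamc3 and above them for Lamb1 and Itga7 at each stage; the 18-month libraries were scaled apart from the rest.

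Itga7 (chr10:128933818-128958282, plus strand), the alpha subunit that gives the muscle integrin its grip on laminin, was higher in delEx44 than in WT muscle at every stage. At 4 weeks it stood at 198, 151 and 187 CPM in delEx44 and at 104, 121 and 103 CPM in WT libraries. After running it stood at 135 and 186 CPM in delEx44 and at 105 and 117 CPM in WT libraries, and at 18 months at 96.9, 96.4 and 89.9 CPM in delEx44 and 79.8, 79.3 and 72.9 CPM in WT libraries. Every delEx44 library lay above every WT library of its stage. Itga7 rose by 0.71 ± 0.12 on the log2 scale at 4 weeks (adjusted p = 0.000454), by 0.53 ± 0.15 in the run mice (adjusted p = 0.0196) and by 0.29 ± 0.06 at 18 months (adjusted p = 0.00334). The calls at 4 weeks and at 18 months held in every alternative fit. The call after running was lost without either WT library or delEx44 replicate 2 (adjusted p = 0.0513 to 0.210) and in the fit of the 2 groups alone.

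The difference between delEx44 and WT in Itga7 was smaller at 18 months than at 4 weeks, by -0.44 ± 0.12 on the log2 scale (adjusted p = 0.0262 for the interaction). This call was lost without WT replicate 1 or 3 at 4 weeks, delEx44 replicate 1 or 3 at 4 weeks, delEx44 replicate 3 at 18 months, or either of the 2 WT libraries at 18 months that carry no replicate number here (adjusted p = 0.0545 to 0.0765). It was also lost with no filter (adjusted p = 0.0536). For corrected minus delEx44 the Itga7 interaction was 0.35 ± 0.12 (adjusted p = 0.0581), and 0.45 (adjusted p = 0.00731) without delEx44 replicate 2 at 4 weeks. The log2 value for delEx44 minus WT stayed between -0.36 and -0.55 in all 17 alternative fits. The 2 ages lie in separate count tables, and age and table cannot be told apart.

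In corrected muscle Itga7 stood at 124, 116 and 117 CPM at 4 weeks, 109 and 124 CPM after running and 80.8, 75.5 and 78.9 CPM at 18 months, below every delEx44 library of the stage. On the log2 scale it fell against delEx44 muscle by 0.59 ± 0.12 at 4 weeks (adjusted p = 0.00196), by 0.46 ± 0.15 in the run mice (adjusted p = 0.0430) and by 0.27 ± 0.06 at 18 months (adjusted p = 0.00646). The call after running was lost without delEx44 replicate 2 or either corrected library (adjusted p = 0.0605 to 0.385) and in the fit of the 2 groups alone, and the others held in every alternative fit. Markers of immature fibres, 7 genes such as Myh3 and Myog, summed to 426 to 1001 CPM in delEx44 against 46.2 to 69.2 CPM in WT libraries at 4 weeks and to 171 to 221 CPM against 32.0 to 34.3 CPM at 18 months. The 7 satellite cell markers summed to 152 to 168 CPM in delEx44 against 122 to 132 CPM in WT libraries at 4 weeks and to 138 to 176 CPM against 105 to 113 CPM at 18 months. Of both lists 0 genes were at 0 at these ages, and their part in the Itga7 result was not tested.

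Itgb1 (chr8:128685654-128733200, plus strand), the beta subunit shared by many integrins, rose in delEx44 over WT muscle after running and at 18 months. It stood at 388 and 418 CPM in delEx44 and at 272 and 293 CPM in WT libraries after running, and at 718, 694 and 708 CPM against 512, 510 and 557 CPM at 18 months. The libraries did not overlap. Itgb1 rose by 0.52 ± 0.10 (adjusted p = 0.00210) in the run mice and by 0.43 ± 0.07 (adjusted p = 0.000764) at 18 months, and both calls held in every alternative fit. At 4 weeks the values were 574, 524 and 562 CPM in delEx44 and 480, 558 and 451 CPM in WT libraries, and WT replicate 2 lay within the delEx44 values. Itgb1 had a log2 fold change there of 0.16 ± 0.08 (adjusted p = 0.121), and it passed without WT replicate 2 (0.25, adjusted p = 0.0181) and with total counts (0.55, adjusted p = 0.000121).

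Itgb1 fell in corrected against delEx44 muscle by 0.25 ± 0.08 at 4 weeks, 0.36 ± 0.10 after running and 0.22 ± 0.07 at 18 months on the log2 scale (adjusted p = 0.0212, 0.0201 and 0.0327). Corrected libraries held 470, 467 and 458 CPM, 304 and 326 CPM, and 647, 567 and 610 CPM at the 3 stages, below every delEx44 library. The 4-week call was lost without delEx44 replicate 1 or corrected replicate 2 or 3 (adjusted p = 0.0513 to 0.0627). The call after running was lost without delEx44 replicate 2 or corrected replicate 1 (adjusted p = 0.119 and 0.152) and in the fit of the 2 groups alone. The 18-month call was lost without any 1 of the 3 delEx44 libraries or corrected replicate 2 or 3 (adjusted p = 0.0580 to 0.115), with DESeq2 size factors and with no filter.

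Bcam (chr7:19756131-19771016, minus strand) encodes an immunoglobulin-like receptor of the laminin alpha-5 chain. It was higher in delEx44 than in WT muscle at 4 weeks, with 59.9, 58.1 and 53.9 CPM against 49.6, 50.1 and 43.0 CPM and a log2 fold change of 0.27 ± 0.09 (adjusted p = 0.0294). After running it stood at 70.7 and 85.9 CPM in delEx44 and at 54.9 and 66.6 CPM in WT libraries (0.37 ± 0.11, adjusted p = 0.0292). No delEx44 library lay within the WT values at these stages. The 4-week call was lost without WT replicate 3 or delEx44 replicate 1 or 2 (adjusted p = 0.0575 to 0.113). The call after running was lost without WT replicate 1 or delEx44 replicate 2 (adjusted p = 0.223 and 0.244) and in the fit of the 2 groups alone.

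At 18 months Bcam stood at 46.8, 51.2 and 48.9 CPM in delEx44 and at 45.8, 39.6 and 37.5 CPM in WT libraries, with a log2 fold change of 0.26 ± 0.10 (adjusted p = 0.0578). It passed without 1 of the unnumbered WT libraries (0.34, adjusted p = 0.0268), with total counts (0.56, adjusted p = 0.00109) and in the fit of the 2 groups alone (0.23, adjusted p = 0.0257). In corrected against delEx44 muscle it fell by 0.26 ± 0.09 on the log2 scale at 4 weeks (adjusted p = 0.0355), a call lost without delEx44 replicate 1 or 2 or corrected replicate 2 or 3 (adjusted p = 0.0706 to 0.113). The values after running and at 18 months were -0.26 ± 0.11 (adjusted p = 0.124) and -0.22 ± 0.10 (adjusted p = 0.115), and the second was -0.49 (adjusted p = 0.00317) with total counts. Lama5, which codes for its ligand chain, had fold changes of the opposite sign in these 6 comparisons with TMM scaling, and in 2 of them with total counts (delEx44 over WT at 18 months and corrected over delEx44 after running).

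Across the corrected and delEx44 groups, 5 of the 10 genes passed at 4 weeks (1 higher, 4 lower), against 46.3% of all genes. After running 6 passed (1 higher, 5 lower), against 23.2%, and at 18 months 4 passed (0 higher, 4 lower), against 41% of all genes. These comparisons share their delEx44 libraries with those against WT. Between corrected and WT muscle 0 of the 10 genes passed edgeR's test at any stage, against 0% of all genes at 4 weeks, 0.02% after running and 4.76% at 18 months. At an unadjusted p under 0.05 the members were 0, 1 and 5 in number, beside 1497 and 1455 of 15013 genes and 3537 of 14337 genes. DESeq2 called 0, 0 and 0 members, beside 220, 82 and 1638 genes. For corrected over WT the log2 fold changes ran from -0.09 to 0.12 at 4 weeks, from -0.29 to 0.16 after running and from -0.76 to 0.27 at 18 months.

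At 18 months the corrected libraries differed among themselves in the macrophage markers, whose sum was 716, 303 and 1024 CPM in replicates 1, 2 and 3, against 969 to 1042 CPM in delEx44 and 266 to 366 CPM in WT libraries. Without corrected replicate 2, 3 of the 10 genes passed between corrected and WT muscle. Lama2 was then 0.35 higher (adjusted p = 0.0109) and Itgb1 0.26 higher (adjusted p = 0.0349), and Lamc3 stood at -1.07 on the log2 scale (adjusted p = 0.0190). The part of the macrophage markers in these values was not tested. Over all fits of this comparison that left out 1 library, 9 to 2859 genes passed, against 683 with all libraries. The count of 3 members is therefore not read as a result about the laminin genes.

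With running and growth, the fibre laminin genes and Itgb1 fell in all 3 genotypes while Lama5 and Bcam rose. Between run mice of 8 weeks and sedentary mice of 4 weeks, 7 of the 10 genes passed in corrected muscle (2 higher, 5 lower), against 25.8% of all genes. In delEx44 muscle 8 passed (3 higher, 5 lower), against 35.7%, and in WT muscle 7 (2 higher, 5 lower), against 27.6%. Their median log2 fold change was -0.35 in corrected, -0.27 in delEx44 and -0.36 in WT muscle, beside medians over all genes of -0.01, -0.04 and 0.00. With total counts the medians over all genes were 0.04, -0.20 and 0.10.

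Lamc1 stood at 173 and 216 CPM after running against 336, 381 and 354 CPM at 4 weeks in corrected muscle. In delEx44 muscle it stood at 239 and 246 CPM against 308, 385 and 309 CPM, and in WT muscle at 188 and 203 CPM against 360, 352 and 318 CPM. The run libraries lay below the 4-week libraries in each genotype. Lamc1 fell by 0.88 ± 0.12 in corrected, 0.46 ± 0.12 in delEx44 and 0.81 ± 0.12 in WT muscle (adjusted p = 0.000371, 0.00824 and 0.000401). The delEx44 call was lost without delEx44 run replicate 1 (adjusted p = 0.0641).

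Lama2 had log2 fold changes of -0.97 ± 0.12 in corrected, -0.34 ± 0.12 in delEx44 and -0.89 ± 0.12 in WT muscle. Lamb1 had values of -0.91 ± 0.12, -0.58 ± 0.12 and -0.96 ± 0.12 in the same order of genotypes, Lama4 of -0.91 ± 0.16, -0.57 ± 0.16 and -0.73 ± 0.16, and Itgb1 of -0.56 ± 0.09, -0.45 ± 0.09 and -0.81 ± 0.09. All 12 passed, with adjusted p up to 0.0422 for Lama2 in delEx44 muscle. That call was lost without delEx44 replicate 1 or 2 at 4 weeks or either run library (adjusted p = 0.0566 to 0.186) and in the fit of the 2 groups alone. Lama4 lost its call in delEx44 muscle without either run library (adjusted p = 0.0504 and 0.110) and in WT muscle without run replicate 2 (adjusted p = 0.0750). The sum over the 9 fibroblast markers moved the same way. It was 4630 to 5215 CPM after running against 8201 to 10216 CPM at 4 weeks in corrected muscle. In delEx44 muscle it was 7219 to 7226 CPM against 9896 to 11009 CPM, and in WT muscle 4722 to 5041 CPM against 8055 to 9074 CPM. A sum can be set by its most abundant genes, and the part of these markers in the fall was not tested.

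Lama5 rose by 0.83 ± 0.11 in corrected, 0.68 ± 0.11 in delEx44 and 0.69 ± 0.11 in WT muscle on the log2 scale (adjusted p = 0.000321, 0.000607 and 0.000715). It stood at 62.7 and 58.8 CPM after running against 34.7, 29.2 and 38.7 CPM at 4 weeks in corrected muscle, at 52.5 and 52.0 CPM against 33.4, 35.5 and 29.2 CPM in delEx44 muscle, and at 58.4 and 54.2 CPM against 37.9, 34.4 and 32.0 CPM in WT muscle. No run library overlapped with the 4-week libraries, and all 3 calls held in every alternative fit. As a share of alpha chains, Lama5 made up 36.5 ± 4.60% after running against 14.6 ± 1.92% at 4 weeks in corrected muscle, 25.6 ± 0.124% against 13.8 ± 0.681% in delEx44 muscle and 33.7 ± 1.78% against 15.3 ± 0.128% in WT muscle (SD, n = 2 run and 3 at 4 weeks). Per longest transcript the WT shares were 22.1% and 9.14%.

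Bcam rose by 0.46 ± 0.10 in corrected, 0.45 ± 0.10 in delEx44 and 0.35 ± 0.10 in WT muscle (adjusted p = 0.00684, 0.00478 and 0.0237). Its call was lost in delEx44 muscle without run replicate 2 (adjusted p = 0.0740) and with total counts, and in WT muscle without 4-week replicate 3 or run replicate 2 (adjusted p = 0.0729 and 0.275). Lamb2 rose in delEx44 muscle by 0.31 ± 0.09 (adjusted p = 0.0195), while its log2 fold changes in corrected and WT muscle were -0.14 and 0.12 and did not pass. That call was lost without delEx44 replicate 1 or 3 at 4 weeks or run replicate 2 (adjusted p = 0.0610 to 0.147), with total counts and in the fit of the 2 groups alone. Lamc3 and Itga7 passed in none of the 3 genotypes.

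**Figure D4:**
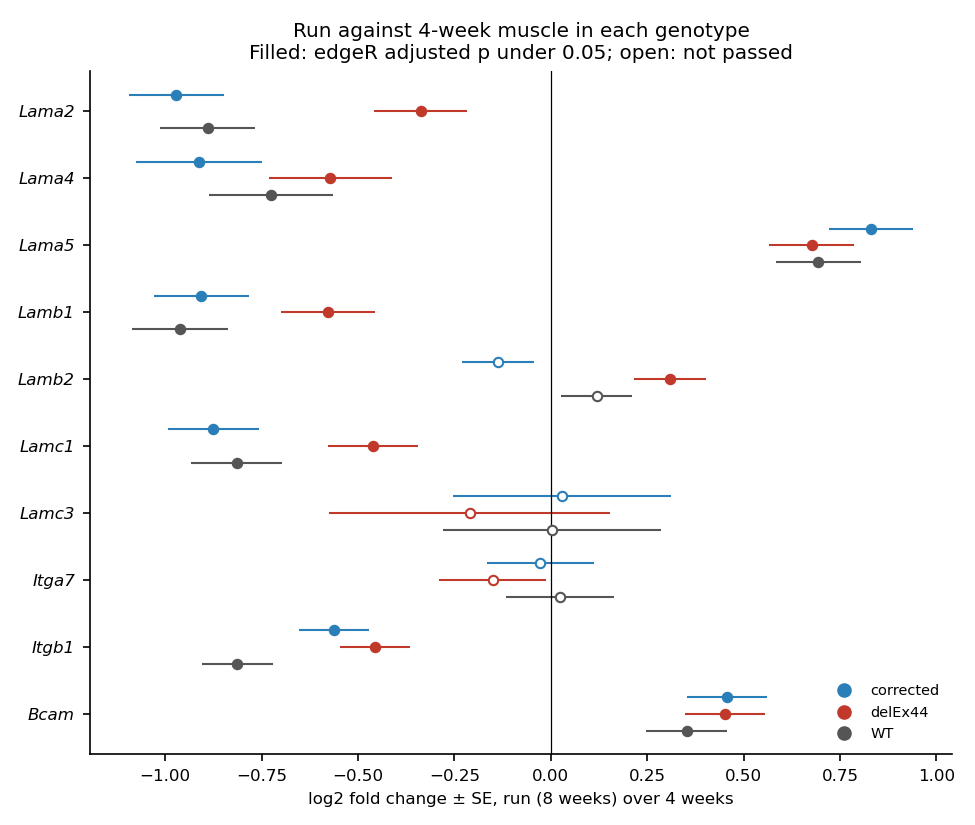
Log2 fold change with its SE (horizontal axis) of each gene (vertical axis) for run mice of 8 weeks over sedentary mice of 4 weeks, in corrected, delEx44 and WT muscle; filled points passed adjusted p 0.05. Lama2, Lama4, Lamb1, Lamc1 and Itgb1 lie below 0 and Lama5 and Bcam above 0 in all 3 genotypes, and Lamc3 and Itga7 lie near 0 with open points.

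Whether the genotypes differed in this step was tested directly. Between delEx44 and WT muscle 0 of the 10 genes passed the interaction in edgeR, against 0.879% of all genes, with 4 at an unadjusted p under 0.05 (2642 of all 15013 genes) and 1, Lama2, by DESeq2 (718 of all genes). The Lama2 interaction was 0.55 ± 0.17 on the log2 scale (adjusted p = 0.124 in edgeR and 0.0406 in DESeq2). Between corrected and delEx44 muscle 0 passed, against 1.42% of all genes, with 3 at an unadjusted p under 0.05 (2763 of all genes) and 2, Lama2 and Lamb2, by DESeq2 (864 of all genes). Their interactions were -0.63 ± 0.17 (adjusted p = 0.0774) and -0.45 ± 0.13 (adjusted p = 0.0978). Both passed in edgeR without delEx44 replicate 2 at 4 weeks (adjusted p = 0.0322 and 0.0409).

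Between 18 months and 4 weeks, 1 of the 10 genes, Itga7, passed the interaction for delEx44 minus WT (lower), against 10.9% of all genes. For corrected minus delEx44 1 passed, Lamc3 (lower), against 15.9% of all genes. Both shares lie near the background. The remaining interaction values ran from -0.43 for Lama5 to 1.2 for Lamc3 in the first contrast and from -0.24 for Lamb2 to 0.35 for Itga7 in the second. Levels at 18 months come from a table that was scaled apart from that of the younger mice, so no level is compared between them. In these interactions age and table cannot be told apart.

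Among the other genes of the basement membrane, 14 partners such as the collagen IV chains, nidogens, perlecan and fibronectin were followed. Of these, 8 rose and 0 fell in delEx44 over WT muscle at 4 weeks, 12 rose and 0 fell after running, and 11 rose and 0 fell at 18 months. The shares of all genes that passed were 50.2%, 29.1% and 52.7%, so the 8 of 14 at 4 weeks lie near the background. The median log2 fold changes were 0.36, 0.63 and 0.41. The sum over the 9 fibroblast markers moved the same way. It was 7219 to 7226 CPM in delEx44 against 4722 to 5041 CPM in WT libraries after running. At 18 months it was 5379 to 6205 CPM against 3229 to 3500 CPM. The part of these markers in these counts was not tested. In corrected against delEx44 muscle 6, 9 and 10 of the 14 fell and 0 rose, with medians of -0.22, -0.60 and -0.55, beside medians over all genes of -0.01, 0.00 and -0.03 and shares of 46.3%, 23.2% and 41% of all genes that passed. Fn1, fibronectin, rose by 1.16 ± 0.17 at 4 weeks and 2.05 ± 0.32 at 18 months in delEx44, Col6a3, a collagen VI chain, by 0.56 ± 0.14 and 0.84 ± 0.12, and Col18a1 by 0.60 ± 0.09 at 4 weeks. Nid1, nidogen, which binds the gamma-1 chain of laminin, had a log2 fold change of 0.16 ± 0.08 at 4 weeks (adjusted p = 0.123) and rose by 0.63 ± 0.10 after running and 0.44 ± 0.08 at 18 months. With running and growth 13, 12 and 11 of the 14 fell in corrected, delEx44 and WT muscle and 0 rose, against 25.8%, 35.7% and 27.6% of all genes that passed.

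Of 7 other laminin receptors, 3 rose and 0 fell in delEx44 over WT muscle at 4 weeks, 1 rose and 1 fell after running, and 2 rose and 1 fell at 18 months. The medians were 0.22, 0.00 and 0.15, and the counts lie near or below the 50.2%, 29.1% and 52.7% of all genes that passed. Sdc1, a syndecan, rose by 0.77 ± 0.11 at 4 weeks and 0.75 ± 0.11 at 18 months. Dag1, which encodes dystroglycan, fell at 18 months by 0.47 ± 0.07 (adjusted p = 0.000280) and rose at that age in corrected over delEx44 muscle by 0.41 ± 0.07 (adjusted p = 0.000913). At 4 weeks its log2 fold change for delEx44 over WT was -0.14 ± 0.08 (adjusted p = 0.182). In TPM, which uses no TMM factors, Dag1 stood at 200 to 227 in delEx44 against 164 to 182 in WT libraries at 4 weeks. Its sign at that age therefore depends on the scaling. At 18 months it stood at 198 to 210 against 220 to 228 TPM. Fold changes of the gene lists are given with TMM scaling only. The integrin subunits Itga3 and Itga6 passed in none of the delEx44 against WT comparisons and fell in corrected against delEx44 muscle at 18 months (-0.40 ± 0.12 and -0.33 ± 0.09). In TPM every delEx44 library of both genes lay above every WT library at 4 weeks and at 18 months, while those of Itga3 overlapped after running. Itgb4 fell in delEx44 against WT muscle after running (-0.66 ± 0.12).

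Of 17 tested enzymes that build the laminin-binding sugar chain of dystroglycan, 2 rose and 9 fell in delEx44 over WT muscle at 4 weeks, 0 rose and 5 fell after running, and 5 rose and 6 fell at 18 months. Their medians were -0.24, -0.06 and -0.07. Against 50.2%, 29.1% and 52.7% of all genes that passed, the 5 of 17 after running are at the background. Pomgnt2 fell by 0.45 ± 0.08 at 4 weeks and 0.65 ± 0.11 at 18 months, and B3galnt2 by 0.85 ± 0.07 at 18 months. In corrected against delEx44 muscle 8 rose and 2 fell at 4 weeks, 3 rose and 1 fell after running, and 5 rose and 3 fell at 18 months. Of all genes 46.3%, 23.2% and 41% passed, so the counts after running and at 18 months lie near the background. The medians were 0.14, 0.06 and 0.11.

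Of 9 other integrin alpha chains that pair with Itgb1, 3 rose and 1 fell in delEx44 over WT muscle at 4 weeks and after running, and 4 rose and 1 fell at 18 months, with medians of 0.00, 0.03 and 0.25. Of all genes 50.2%, 29.1% and 52.7% passed, so the counts at 4 weeks and 18 months lie near the background. Itga5, the fibronectin receptor chain, rose by 0.71 ± 0.13 at 4 weeks and 2.13 ± 0.20 at 18 months, and Itga4 fell by 0.56 ± 0.12 and 1.01 ± 0.09. Of 14 genes that link integrins to actin, 4 rose and 5 fell at 4 weeks, 4 rose and 0 fell after running, and 5 rose and 5 fell at 18 months, with medians of -0.13, 0.09 and 0.09. Beside the same shares of all genes, the 4 of 14 after running lie near the background. Zyx, zyxin, rose by 0.68 ± 0.09 and 1.11 ± 0.11 at 4 weeks and 18 months, while Tln2, a talin, fell by 0.74 ± 0.08 at 4 weeks. Of 4 tested genes among the other laminin chains and netrin-4, 0 passed at 4 weeks, 2 rose after running, and 1 rose and 2 fell at 18 months, with medians of -0.02, 0.36 and -0.49. These counts too stand beside 50.2%, 29.1% and 52.7% of all genes. Ntn4 rose at 18 months by 1.24 ± 0.14, and Lama3 and Lamb3 fell by 0.96 ± 0.22 and 1.13 ± 0.40.

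**Figure D5:**
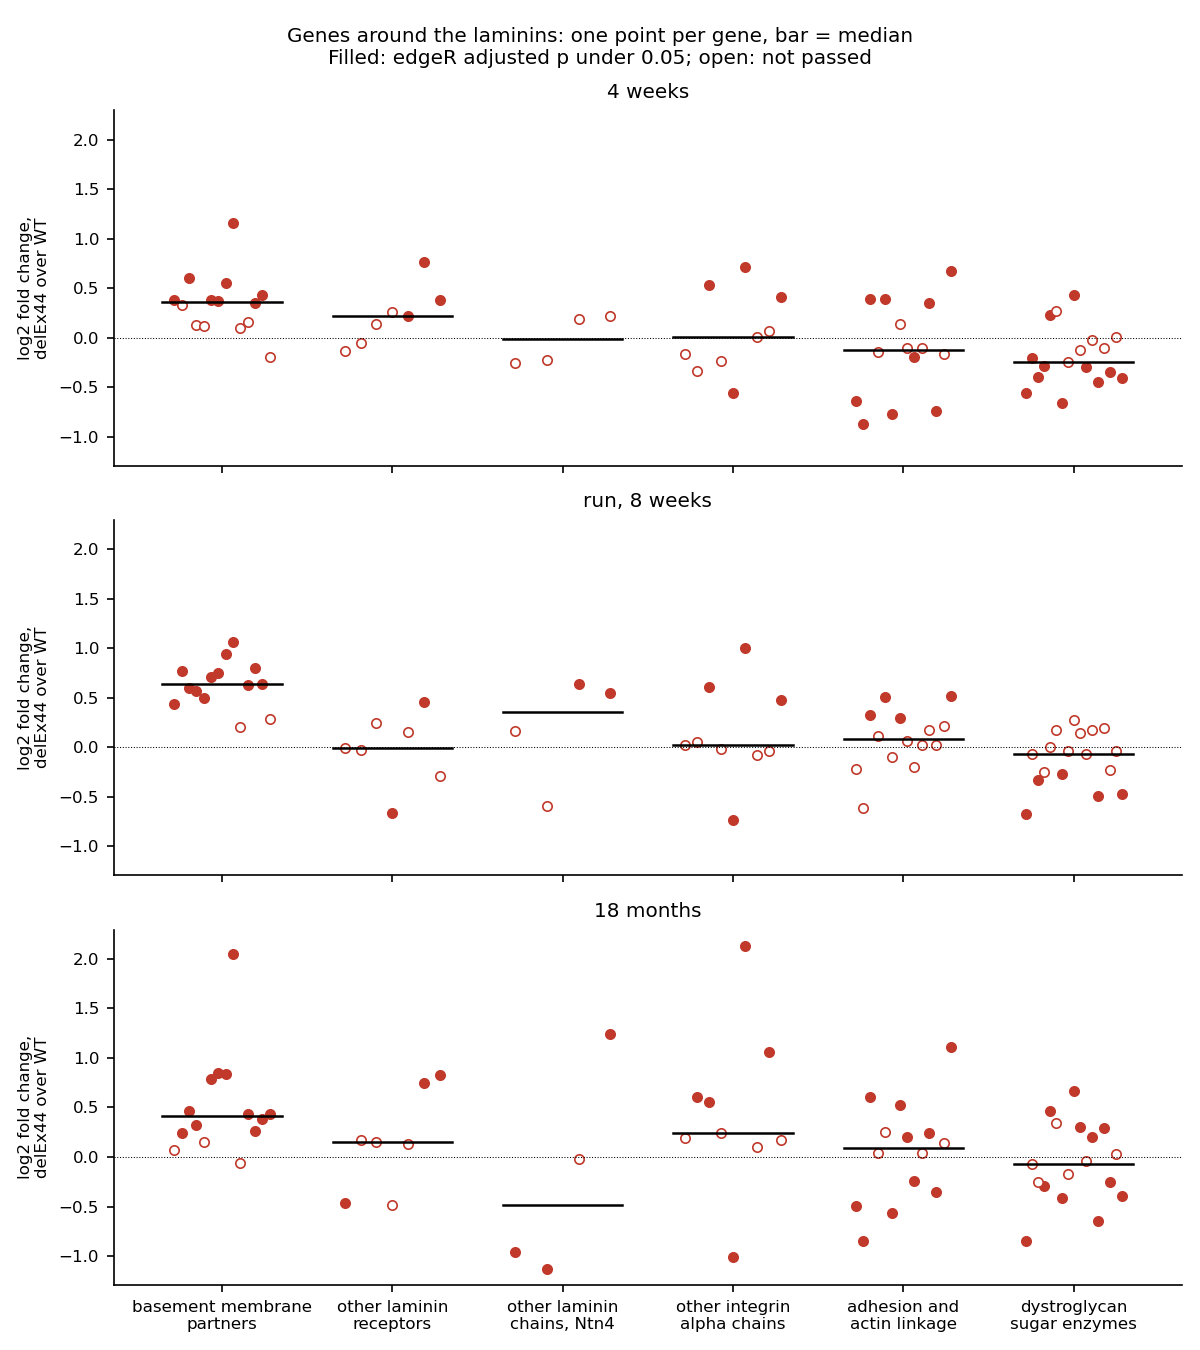
Log2 fold change of delEx44 over WT (vertical axis) for each tested gene of 6 lists (horizontal axis) at 4 weeks, after running and at 18 months; bars are list medians and filled points passed adjusted p 0.05. The basement membrane partners lie mostly above 0 (medians 0.36, 0.63 and 0.41), and the other lists hold genes on both sides.

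Over the 24 libraries, after the mean of each count table was taken from the log2 CPM of each gene, Lama2 and Lamc1 moved most closely together of the 10 genes (Pearson r = 0.96). Lamb1 and Lama4 followed (r = 0.93), then Lamb1 and Itgb1 (r = 0.91). Lama5 ran against Itgb1 (r = -0.88), and Lamc3 against Itga7 (r = -0.88). These values are descriptions over libraries that share genotype, stage and library makeup. Among 9855 other genes with at least 5 CPM on average, the gene most like Lama4 and Lamb1 was Igsf10 (r = 0.95 and 0.96), the one most like Itgb1 was Rcn1 (r = 0.97) and the one most like Itga7 was Stom (r = 0.94). For Lama5 it was Ptov1 (r = 0.94), for Lamb2 Gstm2 (r = 0.83), for Bcam Parp4 (r = 0.85), and for Lamc3, itself under that level, Mlxipl among 9856 genes (r = 0.94).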

How the data were processed

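The authors deposited read counts per gene symbol in 2 tables, of 15 libraries (4 weeks and running) and 9 libraries (18 months). The submitters' processing notes name the mm10 build, HTSeq, edgeR, SAMtools 1.9, the aligners STAR 2.7.2b and Bowtie2 2.3.4.3, and Trim Galore. The sources used here give neither the aligner behind the counts, nor the annotation, nor the strand setting. Records that name no gene, 27.4% to 34.2% and 42.2% to 48.3% per library, were left out.

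The members and gene lists were chosen with earlier results of these data known. Libraries were scaled with TMM factors, low genes removed with filterByExpr, and log2 fold changes tested with edgeR 4.0.16 (robust quasi-likelihood, adjusted over all genes): 15013 genes in the first table, 14337 at 18 months and 14937 in the 18 sedentary libraries, which gave the age interactions. An SE is the absolute log2 fold change over the root of F. CPM and TPM were computed from the deposited counts, with GENCODE vM21 exon lengths matched to 22708 symbols. Alternatives were DESeq2 1.42.0, other scaling, no filter, fits of only the groups compared, and each library left out. The steps were tested on simulated data. Named genes of each list had the 3 smallest p-values for delEx44 over WT at 4 weeks or 18 months or bind laminin directly (Nid1, Dag1, Itga3, Itga6, Itgb4). Not every gene that this rule names is reported here.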

Additional observations from a re-analysis of the deposited data

Results flagged for a closer look

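The genotype difference itself differed between ages, by a direct test, for 1 of the 10 genes in each of 2 contrasts, beside 10.9% and 15.9% of all genes, so these counts lie near the background. The Itga7 difference of delEx44 minus WT was -0.44 on the log2 scale at 18 months relative to 4 weeks (adjusted p = 0.0262, edgeR). Without 1 of 7 libraries named in the account of Itga7 above this did not pass. The Lamc3 difference of corrected minus delEx44 was -1.93 at 18 months relative to 4 weeks (adjusted p = 0.00972, edgeR). Age and count table cannot be told apart for either gene, and for Lamc3 age, vector dose and vector type cannot be told apart.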

How the results depend on the processing

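Of 160 results for single genes (10 genes in 16 comparisons), 58 passed, of which 33 passed in every alternative and 25 were lost in at least 1; 0 of the 58 changed sign. Of the 102 that did not pass, 25 passed in at least 1 alternative. With total counts, added after the data were seen, 23 values changed sign, of which 0 had passed with TMM and 6 passed with total counts. These 6 were, for delEx44 over WT at 4 weeks, Lama2 at 0.28, Lama5 at 0.31, Lamb2 at 0.20 and Lamc1 at 0.36, for corrected over delEx44 at 4 weeks Lama5 at -0.27, and for delEx44 over WT at 18 months Lamb2 at 0.24. Total counts also moved the number of genes called to 10 for delEx44 over WT at 4 weeks, 7 for corrected over delEx44 at 18 months and 2 for the interaction of delEx44 minus WT with age. The share of called genes that were higher in corrected over delEx44 was 10.1% with total counts and 47.7% with TMM at 4 weeks, 26.4% and 46.4% after running, and 13.0% and 47.9% at 18 months. For run over 4 weeks it was 62.4% and 47.8% in corrected, 22.8% and 45.9% in delEx44, and 71.5% and 48.6% in WT muscle. DESeq2 gave 1 and 2 genes for the running interactions of delEx44 minus WT and corrected minus delEx44, and 2 for the age interaction of corrected minus delEx44. Without the filter the age interaction of delEx44 minus WT had 0. Fits of only the groups compared gave 4 for delEx44 over WT and 2 for corrected over delEx44 after running. For the running interactions by DESeq2 the numbers of all genes that passed are given above. For the other fits of this paragraph they are not given here, so these counts have no background beside them.

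Leaving out 1 library at a time gave 3 to 5 genes for delEx44 over WT at 4 weeks (3 without WT replicate 3 or delEx44 replicate 1), 3 to 5 after running (4 without WT replicate 1, 3 without delEx44 replicate 2) and 7 to 8 at 18 months. For corrected over delEx44 it gave 2 to 6 at 4 weeks (2 without delEx44 replicate 1 or corrected replicate 2 or 3), 1 to 6 after running (2 without delEx44 replicate 2, 1 without corrected replicate 1) and 2 to 4 at 18 months (2 without delEx44 replicate 1 or 3). For corrected over WT it gave 0 to 0, 0 to 0 and 0 to 3. Run over 4 weeks gave 7 to 7 in corrected, 4 to 7 in delEx44 (5 without run replicate 1, 4 without run replicate 2) and 5 to 7 in WT muscle. The running interactions gave 0 to 0 for delEx44 minus WT and 0 to 2 for corrected minus delEx44 (2 without delEx44 replicate 2 at 4 weeks). The age interactions gave 0 to 3 for delEx44 minus WT (3 without delEx44 replicate 2 at 4 weeks, 0 without the libraries named for Itga7) and 1 to 2 for corrected minus delEx44 (2 without delEx44 replicate 2 at 4 weeks). Over these fits the number of all genes that passed moved as well. For delEx44 over WT it was 5977 to 7272 at 4 weeks and 5949 to 6887 at 18 months. All libraries gave 7541 and 7549. For corrected over delEx44 it was 5321 to 6426 and 4152 to 6256, against 6945 and 5880. For corrected over WT it was 0 to 68 and 9 to 2859, against 0 and 683. In the age interactions it was 1118 to 1426 for delEx44 minus WT and 1598 to 2984 for corrected minus delEx44. The cause of these changes was not tested.

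A replicate block could be fitted on the 6 corrected and delEx44 libraries at 18 months alone, and gave 2 genes in place of 4, with the calls of Lamb1 (adjusted p = 0.0692) and Itgb1 (adjusted p = 0.0636) lost. Same-numbered libraries there deviated with correlations of -0.031, 0.025 and -0.049, so the numbers were not read as pairs. No paired analysis was possible in the other comparisons, because the groups compared share fewer than 2 replicate numbers that the labels tie to a library: 1 number for corrected and WT after running, 1 for the comparisons with WT at 18 months and 0 for the rest. Counts of Lamc3 as low as 28 limit its precision, and groups of 2 libraries limit the running comparisons. For samples of 1 library left in a group, that library is assumed to vary like the others.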
